A study of Homo sapiens with 10 samples.

Results

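The subunits of the Polycomb repressive complexes PRC1 and PRC2 were followed as a group of 36 genes, out of 63140 gene identifiers in the count table. They were chosen by name, as genes that encode core and accessory subunits, but with earlier results of these data known. The group holds 12 PRC2 genes, the 2 E3 ligases shared by every PRC1 form, 10 genes of canonical PRC1 and 12 genes of variant PRC1. Each symbol matched exactly 1 identifier, and all 36 genes had enough counts to stand among the 16382 genes tested.

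PRC2 places methyl groups on lysine 27 of histone H3 (the H3K27me3 mark), through either of its catalytic subunits EZH2 and EZH1. PRC1 attaches ubiquitin to histone H2A through RING1 or RNF2, paired with one of the PCGF proteins. The canonical form carries a CBX protein that reads H3K27me3, whereas the variant forms carry RYBP or its relative YAF2 instead. Synovial sarcoma is driven by SS18-SSX fusion proteins, which enter BAF chromatin remodelling complexes, and the SSX part binds nucleosomes that carry the ubiquitin mark of PRC1. BRD9 is a bromodomain subunit of one BAF form, the noncanonical BAF complex.

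RNA was measured in HS-SY-II, a human synovial sarcoma cell line, by stranded poly(A) RNA sequencing with paired 150-base reads. The groups were cells given the vehicle DMSO and cells given 100 nM WA-68, a PROTAC that degrades BRD9, for 12, 24, 48 or 96 h. Each of the 5 groups had 2 libraries that the labels call biological replicates of this single line, so the p-values measure the spread between such libraries. The labels do not give the hour at which the DMSO cells were harvested, and the same 2 DMSO libraries serve as the control for all 4 times.

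Assigned counts per library ran from 7349744 to 13200051. Single members held between 95 counts (PCGF6 in the second 96 h library) and 10744 counts (BCOR). Levels are given in CPM, each gene's share of the assigned counts in its library, scaled by trimmed mean of M values (TMM). A gene was called when edgeR's quasi-likelihood test gave a Benjamini-Hochberg adjusted p under 0.05 over all genes tested. BRD9 mRNA, which a protein degrader need not change, was at 88.2 and 89.3 CPM at 96 h, against 100.1 and 108 CPM in DMSO, and it was not called. The second DMSO library and the second 96 h library lay far from the other 8 along the second principal component (16.4% of the variance). Of 11 markers of blood, endothelial, epithelial, liver, muscle and melanocytic cells, 5 were at 0 in all libraries (PTPRC, CD3E, PECAM1, MYOD1 and MLANA). All 11 together summed to between 1 and 5 counts a library. Of 8 synovial sarcoma associated genes, SS18, SSX1, TLE1 and BCL2, named here to check the line, were expressed in every library and not called at 96 h. The other 4 were called there, 2 higher and 2 lower, with log2 fold changes of -1.56 for SIM2, -1.07 for PDGFRA and 0.65 for FGFR2 (edgeR adjusted p = 4.9e-09, 6.07e-07 and 2e-05). Of 6 genes of the BRD9 complex, BICRAL rose at 96 h by 0.46 (edgeR adjusted p = 0.00126) and SMARCC1 fell by 0.33 (edgeR adjusted p = 0.0122). At 96 h 13.0% of all genes tested were called. In bulk RNA, fewer cells of a kind and less RNA per cell cannot be told apart.

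Before the values, the promoters of the members called at 96 h are shown, to let the reader see what kind of start site these genes have. They are the 250 bases before the gene start in RefSeq, GRCh38.p14, for the 5 such members with exactly 1 promoter in the table used, 4 that rose and 1 that fell. All are printed 5′ to 3′ on the gene's own strand. As a check, a stretch of bases just after each start was looked for in the gene's transcripts in GENCODE 29. It was found for RING1, RYBP and PCGF6, but not for EZH1 and CBX7. Capitals mark matches, on either strand, to GGGCGG, the core of the box that SP factors bind, or to CCAAT. Matches may overlap, as in a run of CBX7 where 2 share bases.
EZH1 (rose), chr17:42745041-42745290, minus strand: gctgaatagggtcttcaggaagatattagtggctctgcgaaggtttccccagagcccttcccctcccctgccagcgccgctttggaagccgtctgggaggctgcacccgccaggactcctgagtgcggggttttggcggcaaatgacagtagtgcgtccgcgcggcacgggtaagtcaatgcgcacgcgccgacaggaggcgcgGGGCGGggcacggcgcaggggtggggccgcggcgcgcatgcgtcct
RING1 (rose), chr6:33208250-33208499, plus strand: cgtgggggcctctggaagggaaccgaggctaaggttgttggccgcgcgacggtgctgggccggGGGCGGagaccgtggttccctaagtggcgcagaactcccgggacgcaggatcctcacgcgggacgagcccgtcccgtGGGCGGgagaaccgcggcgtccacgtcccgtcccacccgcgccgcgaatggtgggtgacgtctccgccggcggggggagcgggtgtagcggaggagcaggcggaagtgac
CBX7 (rose), chr22:39152681-39152930, minus strand: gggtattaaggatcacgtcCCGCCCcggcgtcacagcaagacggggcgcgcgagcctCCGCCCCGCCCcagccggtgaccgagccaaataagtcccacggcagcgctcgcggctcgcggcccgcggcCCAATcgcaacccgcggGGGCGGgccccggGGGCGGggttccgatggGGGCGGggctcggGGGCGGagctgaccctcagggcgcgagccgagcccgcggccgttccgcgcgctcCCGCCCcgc
RYBP (rose), chr3:72446624-72446873, minus strand: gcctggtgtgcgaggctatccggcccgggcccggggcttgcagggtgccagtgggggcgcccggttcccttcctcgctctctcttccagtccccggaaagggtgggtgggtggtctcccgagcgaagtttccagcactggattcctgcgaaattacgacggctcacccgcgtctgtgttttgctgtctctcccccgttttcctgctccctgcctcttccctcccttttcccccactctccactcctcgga
PCGF6 (fell), chr10:103351141-103351390, minus strand: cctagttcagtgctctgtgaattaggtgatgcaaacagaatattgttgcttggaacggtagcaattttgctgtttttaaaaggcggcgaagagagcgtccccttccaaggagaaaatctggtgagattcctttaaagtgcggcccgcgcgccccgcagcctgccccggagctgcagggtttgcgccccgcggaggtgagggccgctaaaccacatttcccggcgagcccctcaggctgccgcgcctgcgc

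All 5 windows held more GC than the median window, PCGF6 by the least. GC content was 67.6% for EZH1, 72.8% for RING1, 78.8% for CBX7, 64.8% for RYBP and 58.4% for PCGF6, against a median of 58% over 35116 promoter windows of the same length. GGGCGG matched 8 times in CBX7, 2 times in RING1, once in EZH1 and not in RYBP or PCGF6, and 42.6% of all windows hold it. CCAAT, held by 32% of all windows, matched once in CBX7. The E-box CACGTG, held by 6.34% of windows, and the E2F-type words TTTGGCGC and TTTCCCGC, held by 0.55% and 1.39%, matched in none of the 5. The 4 genes that rose thus shared no searched word, and a match or its lack in these windows says nothing of which factor binds there.

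Every member was expressed in HS-SY-II cells, over a wide range. Per kilobase of exon, BCOR, a corepressor of the variant complex PRC1.1, was by far the highest at 108 CPM per kb in DMSO. It was followed by EZH2 at 40.7, the histone-binding subunit RBBP4 at 38.7, the PRC2 cofactor JARID2 at 31.5 and RING1 at 29.4 CPM per kb. A gene on the opposite strand covers 18% of the exon bases of RBBP4, and the counting's strand setting is not known, so its level may include reads of that gene. The lowest were CBX7 at 2.21 CPM per kb, the PRC2 core subunit EED at 3.22, YAF2 at 3.37 and BMI1 at 4.27 CPM per kb. EZH2 thus stood above EZH1, which had 6.70 CPM per kb in DMSO, and CBX2 at 21.9 CPM per kb stood above CBX7. MGA, the DNA-binding scaffold of the variant complex PRC1.6, varied least, with its highest library 1.09 times its lowest, and PCGF5 varied most at 2.06 times.

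**Figure D1:**
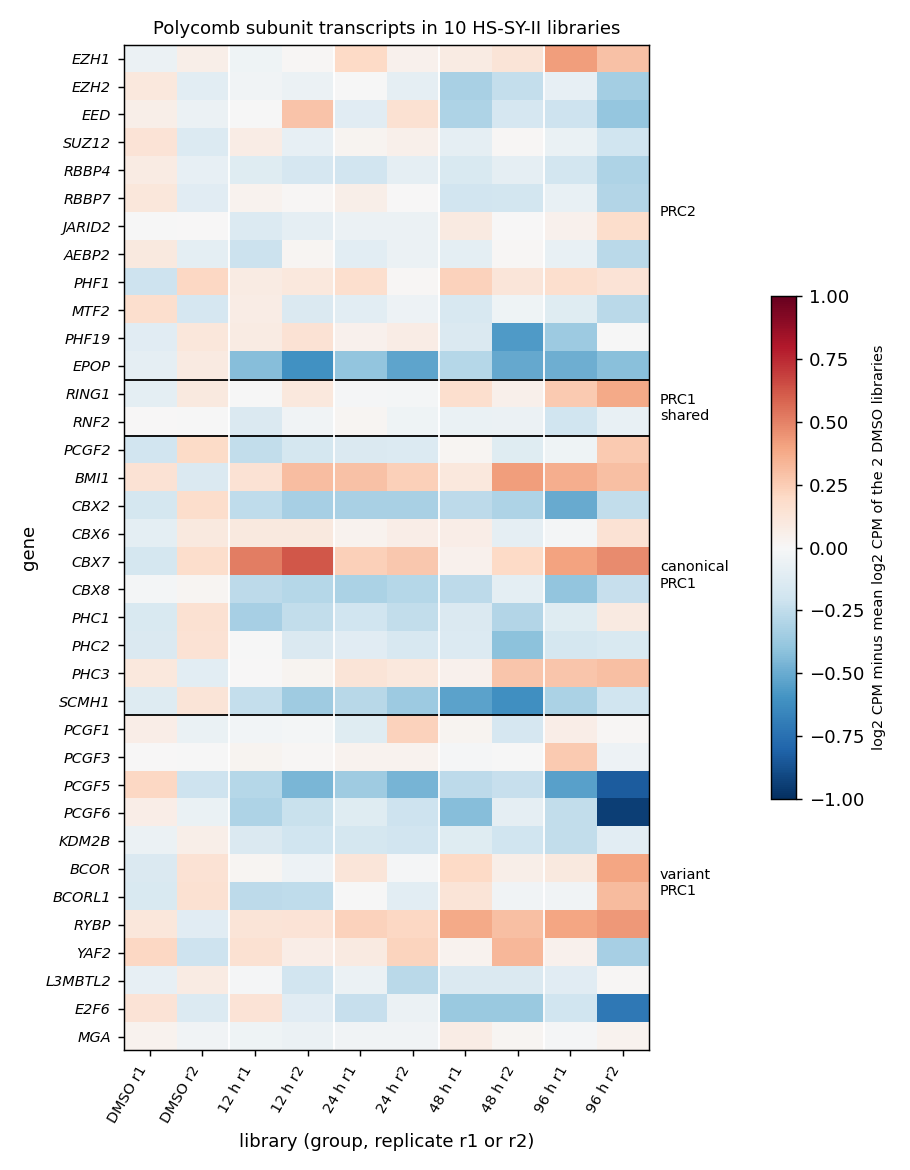
Level of each of the 36 Polycomb subunits (rows, grouped by complex) in each of the 10 libraries (columns, DMSO at the left and then 12, 24, 48 and 96 h of WA-68), as log2 CPM minus the mean log2 CPM of the 2 DMSO libraries. EPOP is lower in all 8 treated libraries, CBX7 is highest at 12 h, and PCGF5 and PCGF6 are lowest in the second 96 h library.

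Most Polycomb subunits were not called at any time, which does not show that they were unchanged. Those called were spread over all forms of the complexes. At 96 h, 4 members rose (EZH1, RING1, CBX7 and RYBP) and 4 fell (EPOP, CBX2, PCGF5 and PCGF6), by 1.25-fold to 1.62-fold. These 8 were 22.2% of the 36, where 13.0% of all genes tested were called at 96 h (6.14% higher and 6.86% lower). At 12 h 2 members were called, CBX7 higher and EPOP lower, where 3.15% of all genes were called (1.23% higher and 1.92% lower). At 24 h the 2 called members, EPOP and PCGF5, fell, where 3.60% of all genes were called (1.34% higher and 2.25% lower). At 48 h 3 members were called, RYBP higher and EPOP and SCMH1 lower, where 9.39% of all genes were called (4.01% higher and 5.38% lower). The shares of members called, 5.56% at both 12 and 24 h and 8.33% at 48 h, rest on 2 or 3 genes each and lie near those of the whole table.

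Over the whole group the shift was small. The median log2 fold change of the 36 members was -0.05 after 12 h, -0.04 after 24 h, -0.07 after 48 h and -0.14 after 96 h, and that of all genes tested lay between -0.01 and 0.00. At 96 h, 15 members had positive and 21 had negative values, and 17 (47.2%) had an unadjusted p under 0.05, as did 26.3% of all genes. The 2 libraries of 96 h both lay above both DMSO libraries for 7 members and both below for 12, and over all genes 48.0% showed such a gap in either direction. At 48 h the counts were 3 above and 15 below, against 48.1% of all genes. Tested at all 4 times jointly, EPOP, CBX7, SCMH1, PCGF5 and RYBP were called, where 10.9% of all genes were called. In all 7 tests 10 members were called at least once and 26 never, and the like share of all genes was not counted.

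**Figure D2:**
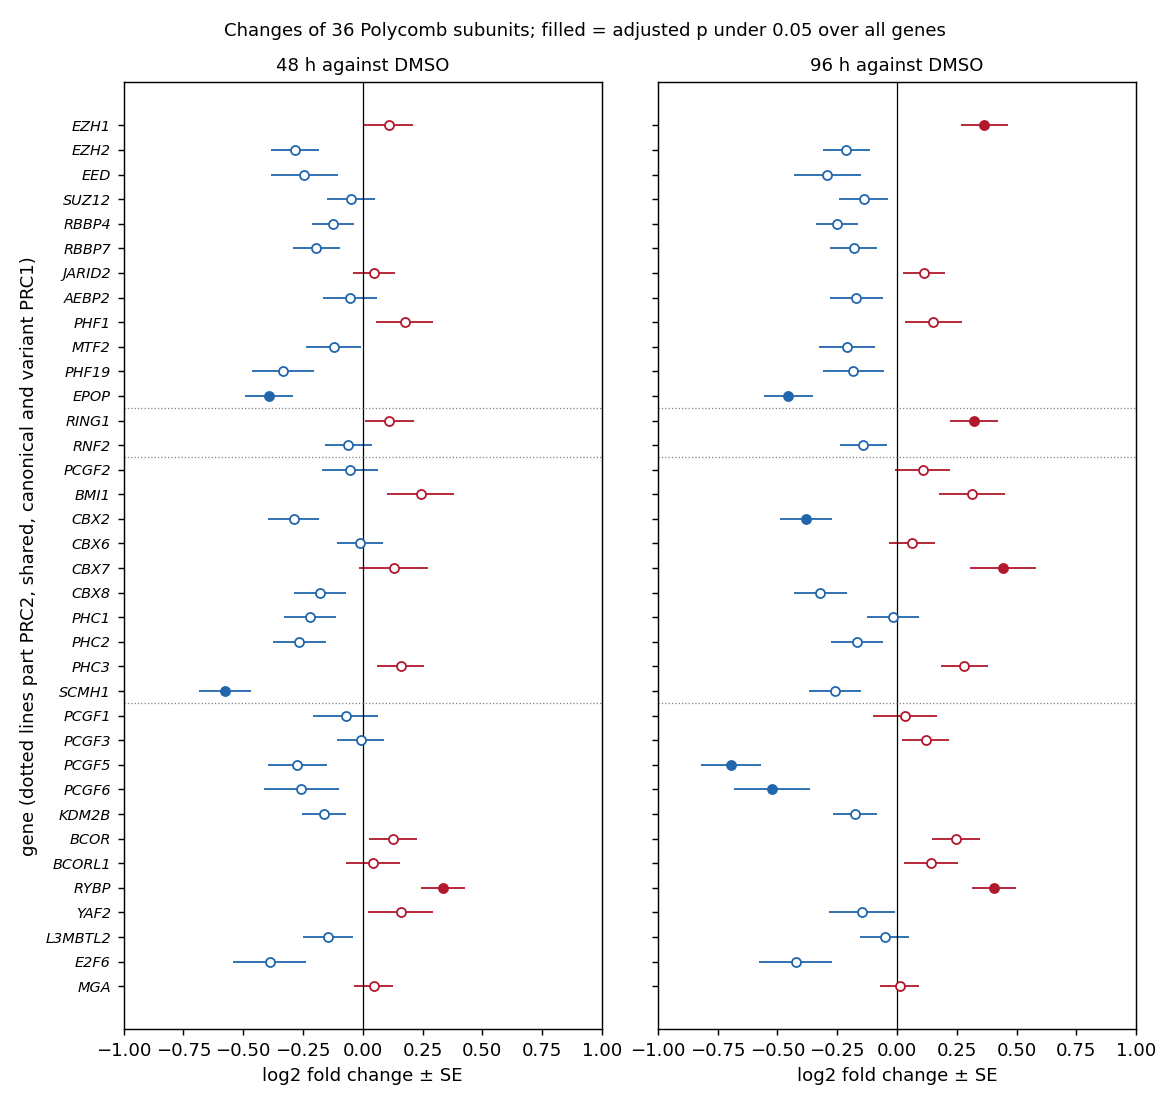
Log2 fold change of each of the 36 Polycomb subunits at 48 h (left) and 96 h (right) against DMSO, with the standard error as a bar; filled points have an adjusted p under 0.05 over all genes tested, red is higher and blue is lower than DMSO. At 48 h the filled points are EPOP, SCMH1 and RYBP, and at 96 h there are 4 filled points on each side of 0.

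In 3 of the 5 groups the 2 libraries differed from each other with base composition. Across the 36 members, the log2 ratio of the second to the first library was set against transcript GC content, with Spearman's rho of 0.795 in DMSO, -0.0371 at 12 h, -0.182 at 24 h, -0.653 at 48 h and 0.567 at 96 h. These are descriptions over members that share libraries, and over the whole table the values were 0.571 in DMSO, -0.059 at 12 h, -0.167 at 24 h, -0.292 at 48 h and 0.289 at 96 h. At 96 h the ratio ran from -0.69 for PCGF6 to 0.36 for BCORL1 on the log2 scale. In DMSO it ran from -0.42 for PCGF5, a GC-poor transcript at 33.6%, to 0.42 for PHF1 at 59.9%. With an offset for GC content in the fit, 6 members were called at 12 h, 4 at 24 h, 7 at 48 h and 16 at 96 h, the 2, 2, 3 and 8 named above among them. That offset raised the calls over all genes as well, to 1595 higher and 1667 lower at 96 h, against 1006 and 1123 without it. Without both second libraries of DMSO and 96 h, an alternative chosen after seeing the data, 10 members were called at 96 h and 6 of the 8 were among them.

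**Figure D3:**
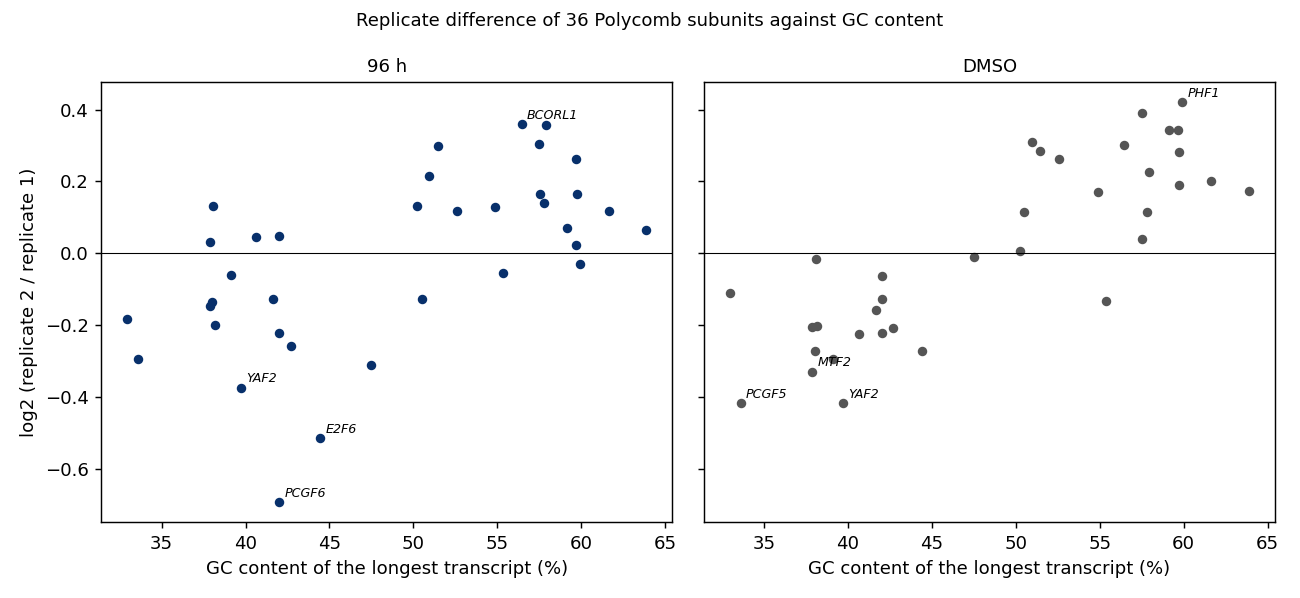
Log2 ratio of the second to the first library of 96 h (left) and DMSO (right), for each of the 36 Polycomb subunits, against the GC content of its longest transcript in percent. In both groups GC-poor members lie lower than GC-rich ones, with PCGF6 lowest at 96 h at -0.69 and PCGF5 lowest in DMSO at -0.42.

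EPOP had the earliest and most sustained change among the PRC2 genes. EPOP encodes an accessory subunit of the PRC2.1 form that links PRC2 to elongin B and C, and lies at chr17:38671703-38675421 (GRCh38, ENSG00000273604). It had 78.3 and 88.4 CPM in DMSO, 61.8 and 54.8 CPM at 12 h, 63.2 and 57.8 CPM at 24 h, 68.2 and 58.5 CPM at 48 h, and 59.4 and 62.2 CPM at 96 h. All 8 treated libraries lay below both DMSO libraries, and the level was about as low at 12 h as at any later time. The log2 fold change was -0.51 at 12 h (SE 0.102, adjusted p = 0.00549, edgeR), -0.46 at 24 h (adjusted p = 0.0106), -0.39 at 48 h (adjusted p = 0.0162) and -0.45 at 96 h (adjusted p = 0.00365). The 96 h call held with each of the 10 libraries left out in turn and under every other alternative. The 12 h call was lost without the second 12 h library (edgeR adjusted p = 0.181). At 24 h the call was lost without the second DMSO library (edgeR adjusted p = 0.0521) or without the first (0.0694) or second (0.264) 24 h library, and at 48 h without the second DMSO library (0.0849) or the second 48 h library (0.307), or with only the DMSO and 48 h libraries in the fit (0.0757).

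Of the catalytic subunits of PRC2, EZH1 was called at 96 h and EZH2 at no time, and the difference between them was not tested. EZH1, the less active methyltransferase, which is typical of non-dividing cells, lies at chr17:42700275-42745049 (ENSG00000108799). It had 44.9 and 48.7 CPM in DMSO, 45.5 and 47.2 CPM at 12 h, 53.8 and 48.1 CPM at 24 h, 49.6 and 51.1 CPM at 48 h, and 62.6 and 57.4 CPM at 96 h. Its 96 h libraries stood above the other 8, and the earlier times overlapped or lay close to DMSO. At 96 h it rose 1.29-fold, a log2 fold change of 0.37 (SE 0.0999, adjusted p = 0.0152, edgeR), and its adjusted p was 0.095 without the first DMSO library and 0.113 without the first 96 h library. A fit to the DMSO and 96 h libraries alone kept 3 of the 8 calls at 96 h, EPOP, PCGF5 and RYBP, and gave adjusted p-values of 0.0823 for EZH1, 0.132 for RING1, 0.0953 for CBX2, 0.0872 for CBX7 and 0.0511 for PCGF6 in edgeR.

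EZH2, the main methyltransferase of dividing cells, was not called at any time. It had 197 and 171 CPM in DMSO, 179 and 176 CPM at 12 h, 183 and 173 CPM at 24 h, 147 and 156 CPM at 48 h, and 173 and 145 CPM at 96 h. Both 48 h libraries were below both DMSO libraries, whereas those of 96 h overlapped with DMSO. The log2 fold change was -0.28 at 48 h (SE 0.0999, adjusted p = 0.0769, edgeR), and -0.30 with the GC offset, where it was called (adjusted p = 0.00663). Genes of G1/S and DNA replication were called lower from 24 h on, and those of G2/M and mitosis from 48 h on. Over all genes tested, 2.25%, 5.38% and 6.86% were called lower at 24, 48 and 96 h. Of 25 genes of G1/S and DNA replication 3 fell at 24 h, 16 at 48 h and 12 at 96 h, with medians of -0.21, -0.40 and -0.28 on the log2 scale. MCM2, MCM4 and MCM7, parts of the replicative helicase, were among those of 48 and 96 h. Of 22 genes of G2/M and mitosis, none was called at 24 h in edgeR. There 21 had positive values, 5 had an unadjusted p under 0.05 and the median was 0.16. DESeq2 also called 0 of them at 24 h. At 48 h 16 of the 22 fell and at 96 h 6, with medians of -0.39 and -0.23. The summed level of the G1/S list was 3451 and 3571 CPM in DMSO, 2708 and 2596 CPM at 48 h, and 2829 and 2852 CPM at 96 h. The part of this in the level of EZH2 or of any other member was not tested.

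The other core subunits of PRC2 did not pass the test at any time. EED, which reads H3K27me3 and stimulates the enzyme, had its largest change at 96 h (log2 fold change -0.29, SE 0.14, edgeR adjusted p = 0.185). SUZ12, the scaffold, ranged from 84.5 to 107 CPM over the 10 libraries, and its largest log2 fold change was -0.14 at 96 h. RBBP4 had -0.25 at 96 h (SE 0.088, edgeR adjusted p = 0.0636) and its relative RBBP7 had -0.19 at 48 h. All 5 core and catalytic genes other than EZH1 thus had negative values at 96 h, none of them called.

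Among the accessory subunits of PRC2 EPOP alone was called. The Polycomb-like proteins PHF1, MTF2 and PHF19, which help bring PRC2 to CpG-rich DNA, had largest changes of 0.18 (PHF1, 48 h), -0.21 (MTF2, 96 h) and -0.33 (PHF19, 48 h, SE 0.13, edgeR adjusted p = 0.116). JARID2 and AEBP2, the cofactors of PRC2.2, had largest changes of -0.11 at 12 h and -0.17 at 96 h. JARID2 had 196 and 214 CPM at 96 h, against 189 and 190 CPM in DMSO, and AEBP2 had 43.8 and 38.2 CPM at 96 h, against 49.4 and 42.9 CPM in DMSO. Of the 12 PRC2 genes, 1 rose and 1 fell at 96 h (16.7%, beside 13.0% of all genes). Negative values were seen for 9 of the 12, and their median log2 fold change was -0.18, beside -0.01 for all genes tested.

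Of the shared E3 ligases of PRC1, RING1 was called at 96 h and RNF2 was not, and the difference between them was not tested. Their transcripts hold 61.6% and 38.1% GC. RING1 (chr6:33208495-33212722, ENSG00000204227) had 49.7 and 57.2 CPM in DMSO, 53.3 and 57.5 CPM at 12 h, 52.9 and 52.6 CPM at 24 h, 59.9 and 55.1 CPM at 48 h, and 64.1 and 69.5 CPM at 96 h. Its 96 h libraries were the highest 2 of the 10. It rose 1.25-fold at 96 h (log2 fold change 0.32, SE 0.0998, edgeR adjusted p = 0.0325). The call was lost with DESeq2 (adjusted p = 0.0583) and, in edgeR, without the first DMSO library (0.243), the first 24 h library (0.0597) or the second 96 h library (0.169). RNF2, also called RING1B, ranged from 45.2 to 52.8 CPM over all libraries and was not called, with a log2 fold change of -0.14 at 96 h (SE 0.0982, edgeR adjusted p = 0.395).

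The CBX genes of canonical PRC1 moved in opposite directions. CBX7, a chromodomain reader of H3K27me3 known for its role in stem cell maintenance, lies at chr22:39120167-39152674 (ENSG00000100307). It had 14.5 and 18.4 CPM in DMSO, 23.4 and 25.2 CPM at 12 h, 19.3 and 19.8 CPM at 24 h, 16.9 and 18.8 CPM at 48 h, and 21.6 and 22.7 CPM at 96 h. Its level was thus highest at 12 h, overlapped with DMSO at 48 h and stood above both DMSO libraries again at 96 h. It rose 1.49-fold at 12 h (log2 fold change 0.58, SE 0.136, edgeR adjusted p = 0.0178) and 1.36-fold at 96 h (0.44, SE 0.138, edgeR adjusted p = 0.0328). Both calls depend on single libraries. The 12 h call was lost without the first DMSO library (log2 fold change 0.39, edgeR adjusted p = 0.149), without either 12 h library (0.0962 and 0.203) and with DESeq2 (adjusted p = 0.0515). The 96 h call was lost without the first DMSO library (log2 fold change 0.26, edgeR adjusted p = 0.341), without either 96 h library (0.0663 and 0.115) and with DESeq2 (adjusted p = 0.0955). An antisense transcript covers 17.9% of the exon bases of CBX7, and the strand setting of the counting is not given in the sources used here.

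CBX2 and CBX8, neighbours on chromosome 17, had negative values at every time. CBX2, which compacts chromatin, lies at chr17:79778132-79787983 (ENSG00000173894). It had 110 and 139 CPM in DMSO, 103 and 98.2 CPM at 12 h, 98.6 and 98.6 CPM at 24 h, 103 and 99.9 CPM at 48 h, and 86.9 and 104 CPM at 96 h. All 8 treated libraries lay below both DMSO libraries, which themselves differed by more than the treated groups did. It fell 1.30-fold at 96 h (log2 fold change -0.38, SE 0.108, edgeR adjusted p = 0.0199), and this call was lost without the second DMSO library (-0.21, adjusted p = 0.202) or the first 96 h library (-0.24, adjusted p = 0.253). At 12, 24 and 48 h its adjusted p was 0.149, 0.0912 and 0.0981 in edgeR.

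CBX8, another H3K27me3 reader, had 39.6 and 40.7 CPM in DMSO, 33.4 and 33.0 CPM at 12 h, 32.3 and 32.9 CPM at 24 h, 33.5 and 37.4 CPM at 48 h, and 30.4 and 34.1 CPM at 96 h. All 8 treated libraries lay below both DMSO libraries here too, but no time passed the test. The value at 96 h was -0.32 (SE 0.109, edgeR adjusted p = 0.054), and with the GC offset CBX8 was called at 96 h (-0.34, adjusted p = 0.0102). CBX6, which ranged from 149 to 176 CPM, had no log2 fold change beyond 0.10 in size against DMSO.

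SCMH1 had the strongest change at 48 h. It encodes a sex comb on midleg homologue, a SAM domain protein that associates with canonical PRC1, and lies at chr1:41027200-41242154. SCMH1 had 51.6 and 61.9 CPM in DMSO, 48.0 and 44.2 CPM at 12 h, 46.7 and 44.0 CPM at 24 h, 38.9 and 36.9 CPM at 48 h, and 45.4 and 49.3 CPM at 96 h. All treated libraries were below both DMSO libraries, and the 48 h libraries were the lowest 2 of the 10. It fell 1.49-fold at 48 h (log2 fold change -0.57, SE 0.109, edgeR adjusted p = 0.0015), a call that held with each library left out in turn and under every other alternative. At 96 h the value was -0.26 (adjusted p = 0.116, edgeR).

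The remaining canonical subunits were not called. The polyhomeotic proteins, which join PRC1 particles through SAM domains, had largest changes of -0.29 (PHC1, 12 h), -0.27 (PHC2, 48 h) and 0.28 (PHC3, 96 h, SE 0.0968, edgeR adjusted p = 0.056). PHC3 had 154 and 157 CPM at 96 h, against 137 and 118 CPM in DMSO, and was called there with the GC offset (0.33, adjusted p = 0.00171). Of the PCGF proteins that define canonical PRC1, BMI1 (PCGF4) had 23.4 and 22.5 CPM at 96 h, against 20.1 and 16.4 CPM in DMSO (log2 fold change 0.31, SE 0.139, edgeR adjusted p = 0.145). PCGF2 had 69.9 and 86.3 CPM at 96 h, against 62.8 and 82.3 CPM in DMSO, so that its groups overlapped. A readthrough gene on the same strand covers 23.3% of the exon bases of BMI1, and a gene on the opposite strand covers 32.7% of those of PCGF2. Opposite-strand genes also cover 18.1% of PHC1, 10.5% of PHC3 and 14.5% of L3MBTL2. Of the 10 canonical genes 2 were called at 96 h, 1 higher and 1 lower, where 13.0% of all genes were called. Their median was 0.02, and 6 of the 10 had an unadjusted p under 0.05 in edgeR, as did 26.3% of all genes.

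Among the variant complexes, PCGF5 had the largest fall of any member. PCGF5 organises the variant complex PRC1.5, which deposits H2A ubiquitin broadly, and lies at chr10:91163012-91284331. It had 67.7 and 50.7 CPM in DMSO, 48.0 and 42.7 CPM at 12 h, 45.8 and 42.4 CPM at 24 h, 48.9 and 49.8 CPM at 48 h, and 40.3 and 32.8 CPM at 96 h. All 8 treated libraries lay below both DMSO libraries, and those of 96 h were lowest. It fell 1.62-fold at 96 h (log2 fold change -0.69, SE 0.126, edgeR adjusted p = 0.00049), and this held with each library left out in turn and under every other alternative. At 24 h it fell by 0.44 on the log2 scale (SE 0.123, adjusted p = 0.0469, edgeR), and this call was lost with DESeq2 (0.107), with unscaled library sizes (0.131), with a stricter filter (0.0536), with only the libraries compared in the fit (0.124) and when any 1 of 7 libraries was left out. The edgeR adjusted p was 0.373 without the first DMSO library, 0.183 and 0.409 without the first or second 24 h library, 0.0762 and 0.0756 without either 12 h library, and 0.0657 and 0.0731 without either 48 h library. At 12 and 48 h the values were -0.40 and -0.27 (edgeR adjusted p = 0.0851 and 0.179). PCGF3, its close relative, ranged from 68.8 to 85.2 CPM, with a largest change of 0.12 at 96 h that was not called.

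RYBP showed a graded rise. RYBP binds RING1 or RNF2 in all variant complexes and recognises ubiquitylated H2A, and the gene lies at chr3:72371825-72446621. It had 135 and 116 CPM in DMSO, 136 and 137 CPM at 12 h, 147 and 145 CPM at 24 h, 163 and 154 CPM at 48 h, and 164 and 169 CPM at 96 h. Every treated library was above both DMSO libraries, and the group mean was higher at each later time. RYBP rose 1.26-fold at 48 h (log2 fold change 0.34, SE 0.0929, edgeR adjusted p = 0.0231) and 1.33-fold at 96 h (0.41, SE 0.0927, edgeR adjusted p = 0.00404). The 96 h call held with each library left out in turn, but not without the second libraries of DMSO and 96 h together (0.28, edgeR adjusted p = 0.0502). The 48 h call was lost without the second DMSO library (edgeR adjusted p = 0.182) or either 48 h library (0.184 and 0.0884), and with only the libraries compared in the fit (0.0736). YAF2 had 37.3 and 28.8 CPM at 96 h, against 41.8 and 31.3 CPM in DMSO, and was not called at any time.

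Of the 4 members particular to PRC1.6, a germline-gene repressor built around MGA, PCGF6 alone was called. PCGF6, its PCGF protein, lies at chr10:103302796-103351144. It had 26.7 and 24.5 CPM in DMSO, 20.7 and 22.0 CPM at 12 h, 23.5 and 22.2 CPM at 24 h, 19.1 and 24.1 CPM at 48 h, and 21.5 and 13.3 CPM at 96 h. Its 96 h libraries were both below DMSO but far apart, and the lower was the one with 95 counts. PCGF6 fell 1.44-fold at 96 h (log2 fold change -0.52, SE 0.16, edgeR adjusted p = 0.0313). Without the second 96 h library the value was -0.26 (edgeR adjusted p = 0.348) and without the first DMSO library -0.45 (0.147), and with DESeq2 it was -0.53 (adjusted p = 0.0698).

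E2F6, the E2F family repressor of PRC1.6, had 20.04 and 14.0 CPM at 96 h, against 25.3 and 20.9 CPM in DMSO (log2 fold change -0.42, SE 0.153, edgeR adjusted p = 0.0719). L3MBTL2, an MBT domain protein of PRC1.6, ranged from 53.6 to 68.4 CPM with a largest change of -0.16 at 24 h. MGA ranged from 336 to 366 CPM, with no change beyond 0.05 in size. Neither passed the test at any time.

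PRC1.1 is the variant complex that KDM2B brings to unmethylated CpG islands. Its own members, KDM2B, BCOR, BCORL1 and PCGF1, were not called against DMSO. RING1 and RYBP, which it shares with other forms, were called as given above. KDM2B had 87.4 and 96.3 CPM at 96 h, against 99.5 and 108 CPM in DMSO, and its largest change was -0.18 at 24 h. BCOR had 985 and 1212 CPM at 96 h, against 835 and 1017 CPM in DMSO (log2 fold change 0.25, SE 0.101, edgeR adjusted p = 0.115), so its groups overlapped. PCGF1, the PCGF protein of PRC1.1, ranged from 19.0 to 25.0 CPM, with a largest change of -0.07 at 48 h. Of the 12 variant genes 1 rose and 2 fell at 96 h (25.0%, beside 13.0% of all genes), with a median of -0.02.

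**Figure D4:**
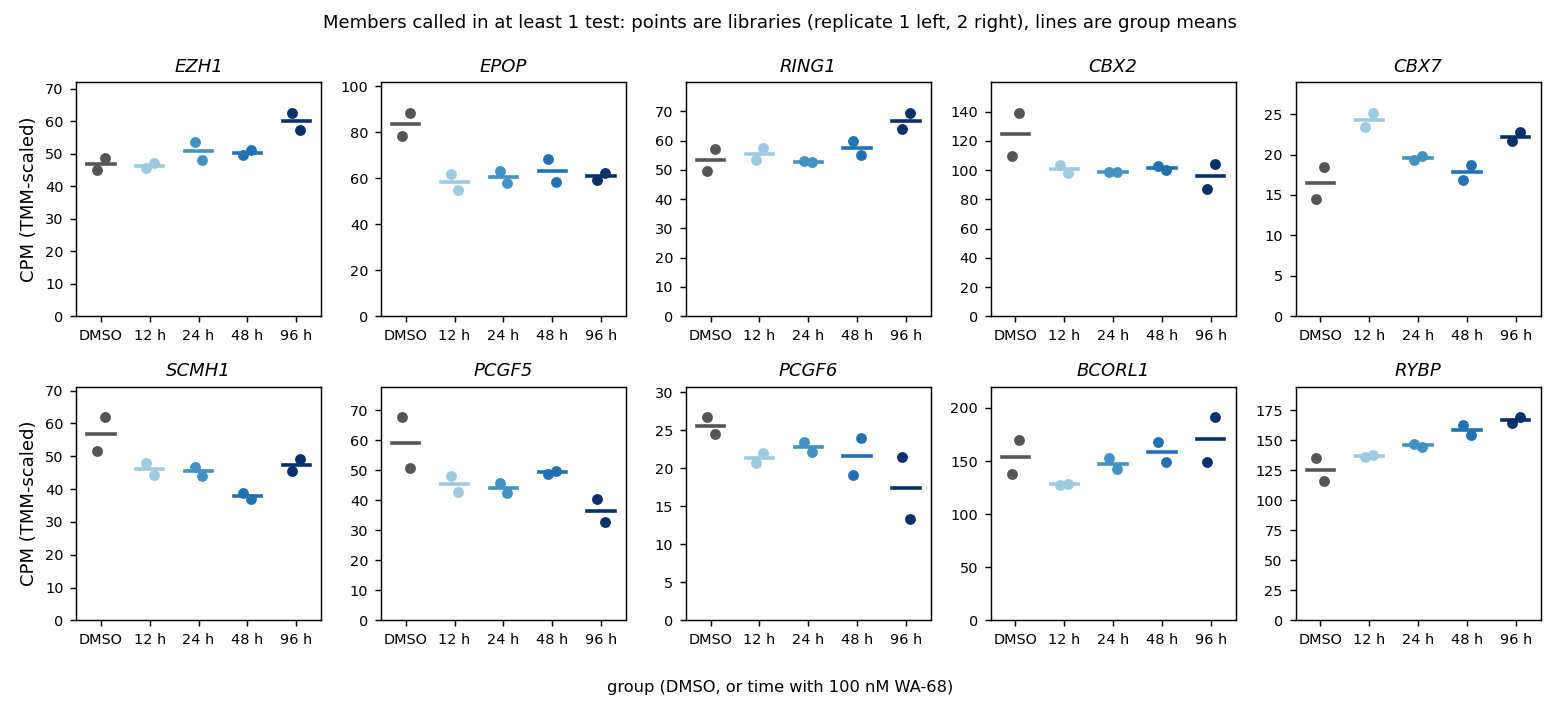
TMM-scaled CPM of the 10 Polycomb subunits called in at least 1 test, in DMSO and after 12, 24, 48 and 96 h of 100 nM WA-68; points are single libraries (replicate 1 at the left) and lines are group means, with axes that start at 0. RYBP has a higher mean at each later time, EPOP is low from 12 h on, and CBX7 is highest at 12 h.

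Comparing late with early treatment asks which members still moved between the first and last times, with no DMSO level in the contrast. At 96 h against 12 h, 2 members rose, EZH1 and BCORL1, and none fell, where 4.13% of all genes were called (2.39% higher and 1.74% lower), and 13 members (36.1%) had an unadjusted p under 0.05, as did 17.9% of all genes. EZH1 had 62.6 and 57.4 CPM at 96 h, against 45.5 and 47.2 CPM at 12 h (log2 fold change 0.38, SE 0.101, edgeR adjusted p = 0.0349). BCORL1, a homologue of BCOR in PRC1.1, had 149 and 191 CPM at 96 h, against 128 and 128 CPM at 12 h (0.41, SE 0.114, edgeR adjusted p = 0.0417). In DMSO it had 138 and 170 CPM, so that its 12 h libraries were the lowest of the 10 and its 96 h libraries overlapped with DMSO. Each of the 2 calls was lost when any 1 of 6 libraries was left out. Without the second 96 h library the value of BCORL1 was 0.22 (edgeR adjusted p = 0.425). Its adjusted p was 0.275 and 0.216 without either 12 h library, 0.0626 and 0.0562 without either 24 h library and 0.0549 without the first 48 h library. The adjusted p of EZH1 was 0.297 and 0.165 without either 12 h library, 0.0603 and 0.0515 without either 24 h library, 0.0532 without the first 48 h library and 0.154 without the first 96 h library, and 0.0567 with DESeq2.

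Between 48 h and 24 h no member was called in edgeR or in DESeq2, 4 had an unadjusted p under 0.05 in edgeR, and 0.757% of all genes were called (0.195% higher and 0.562% lower). The libraries of 48 h both lay above those of 24 h for 8 members and both below for 10, where 41.4% of all genes showed a gap in either direction.

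The balance between related subunits was followed within each library, as the ratio of their CPM per kb, which does not depend on the scaling of library sizes. These ratios are descriptions, were not tested and were not corrected for GC content. CBX2 over CBX7 was 9.89 and 9.90 in DMSO, 5.80 and 5.12 after 12 h, 6.69 and 6.55 after 24 h, 8.01 and 6.99 after 48 h, and 5.27 and 6.02 after 96 h. CBX2 and CBX7 have nearly the same GC content, 59.7% and 59.2%, and their ratio was almost equal in the 2 DMSO libraries although each gene differed between them. All 8 treated libraries lay below DMSO. EZH2 over EZH1 was 6.79 and 5.42 in DMSO, 6.09 and 5.76 after 12 h, 5.25 and 5.54 after 24 h, 4.57 and 4.72 after 48 h, and 4.27 and 3.90 after 96 h. It lay below DMSO in all libraries of 48 and 96 h and overlapped with DMSO at 12 and 24 h.

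RNF2 over RING1 was 0.315 and 0.318 at 96 h, against 0.469 and 0.404 in DMSO. This ratio also lay below DMSO at 12 h and overlapped with it at 24 and 48 h. YAF2 over RYBP was 0.151 and 0.113 at 96 h, against 0.206 and 0.180 in DMSO, and overlapped with DMSO at the earlier times. BCORL1 over BCOR lay below its DMSO values of 0.177 and 0.179 in all 8 treated libraries, which ran from 0.146 to 0.169. MTF2 over PHF19 overlapped with DMSO at every time, and BMI1 over PCGF2 lay above DMSO at 12 and 24 h and overlapped with it at 48 and 96 h. The transcripts of BMI1 and PCGF2 hold 39.1% and 57.5% GC, and their ratio was 0.263 and 0.164 in the 2 DMSO libraries.

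**Figure D5:**
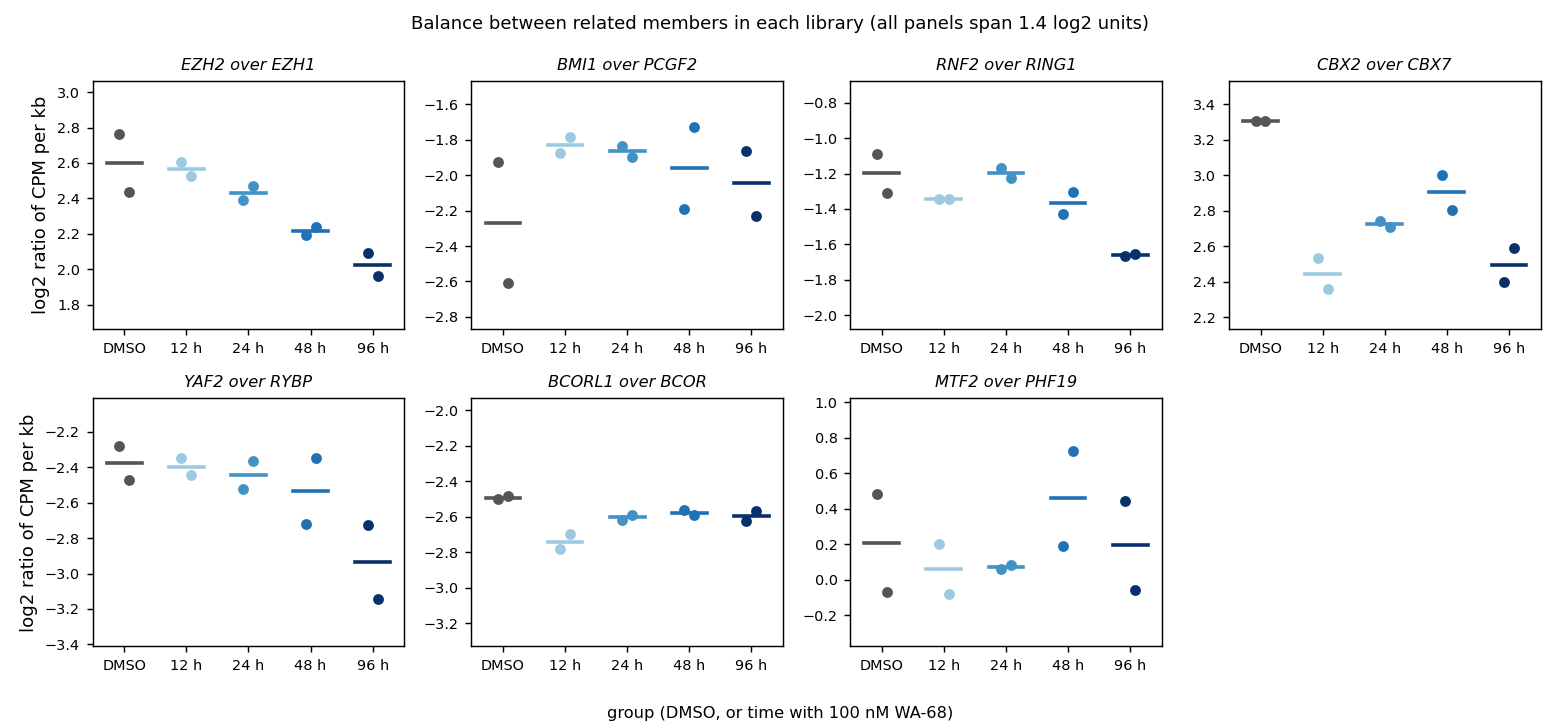
Log2 ratio of CPM per kb between related Polycomb subunits in each library, in DMSO and after 12, 24, 48 and 96 h of WA-68; points are libraries, lines are group means, and every panel spans the same range of log2 units. CBX2 over CBX7 is lower than in DMSO in all 8 treated libraries, and EZH2 over EZH1 is lower at 48 and 96 h.

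Other parts of the Polycomb system were read from lists of their own. Among 14 genes of H2A deubiquitinases, the enzymes that remove the mark of PRC1, ASXL3 alone was called at each time against DMSO. It is 7.14% of the list, and 3.15%, 3.60%, 9.39% and 13.0% of all genes were called at 12, 24, 48 and 96 h. ASXL3, a cofactor of the deubiquitinase BAP1, had 68.2 and 56.2 CPM in DMSO, 83.1 and 88.4 CPM at 12 h, 86.3 and 84.6 CPM at 24 h, 82.4 and 88.9 CPM at 48 h, and 94.5 and 102 CPM at 96 h. All treated libraries were above both DMSO libraries, and at 96 h the log2 fold change was 0.65 (SE 0.0998, adjusted p = 9.23e-05, edgeR). Of the 2 H3K27 demethylase genes none was called against DMSO at any time in edgeR or DESeq2, with 1 unadjusted p under 0.05 at 12 h and 0 at the later times. KDM6B, named here after its values were seen, rose at 96 h against 12 h (0.52, SE 0.112, edgeR adjusted p = 0.0071) and was called in the joint test of the 4 times (edgeR adjusted p = 0.0153). With the GC offset 1 of the 2 demethylase genes was called lower at 12 h.

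Of 28 further Polycomb partners, 26 were tested, and 2 (7.69%) fell at 48 h and 2 at 96 h. Of all genes tested, 9.39% were called at 48 h (5.38% lower) and 13.0% at 96 h (6.86% lower). WDR5, a WD40 protein found in PRC1.6 and in H3K4 methyltransferase complexes, fell at both times (-0.29 at each, adjusted p = 0.0454 and 0.0324, edgeR). TFDP1, the dimer partner of E2F proteins, fell at 48 h (-0.35, adjusted p = 0.0151, edgeR) and the deacetylase HDAC2 at 96 h (-0.35, adjusted p = 0.0259, edgeR). At 12 and 24 h none was called in edgeR, with 2 and 4 unadjusted p-values under 0.05, and DESeq2 called 1 and 0. Of 12 writers of opposing marks 1 (8.33%) was called at each of 48 and 96 h, beside 9.39% and 13.0% of all genes. DOT1L, the H3K79 methyltransferase, fell at 48 h (-0.42, adjusted p = 0.0138, edgeR) and CREBBP, an H3K27 acetyltransferase, rose at 96 h (0.31, adjusted p = 0.0374, edgeR).

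A list of 40 developmental and cell cycle inhibitor genes known as Polycomb targets in other cells had 27 members with enough counts. Of these 4 fell at 12 h and 4 at 24 h, 1 rose and 4 fell at 48 h, and 3 rose and 5 fell at 96 h. That is 14.8% of the 27 at 12 and at 24 h, 18.5% at 48 h and 29.6% at 96 h, beside 3.15%, 3.60%, 9.39% and 13.0% of all genes. The genes that passed had to be expressed in some group, so this count does not speak for the silent ones. At 96 h HOXB4, a homeobox gene, rose by 0.76 on the log2 scale (SE 0.11, adjusted p = 4.45e-05, edgeR), and CDKN1A, the gene of the CDK inhibitor p21, by 0.66 (SE 0.13, adjusted p = 0.0011, edgeR). TBX2, a T-box repressor gene, fell by 0.61 (SE 0.109, adjusted p = 0.000416, edgeR). The called targets thus moved in both directions, with a median over the 27 genes of 0.02 at 96 h and -0.12 at 12 h.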

How the data were processed

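The deposited table holds raw counts per gene and library, with no normalization. Per the submitters' processing notes, bcl2fastq, FastQC, Trim Galore with cutadapt, STAR, featureCounts and GRCh38 were used; what versions, annotation release and strand option were used, and how multi-mapping reads were treated, is not given in the sources used here. Symbols came from a gene name table (62541 of 63140 identifiers), and gene positions, exon lengths and GC content from GENCODE 29 on GRCh38 (58126 identifiers).

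One edgeR 4.0.16 fit (R 4.3.3) of 5 group means to all 10 libraries, after filterByExpr and TMM scaling, gave every test; residual degrees of freedom were 5 and the common biological coefficient of variation 7.17%. The SE is the size of the log2 fold change over the square root of F. On simulated counts, 16064 genes were tested. The 96 h comparison there called 96% of changes of 1 and 70% of changes of 0.5 on the log2 scale. Smaller changes could thus be missed. Simulated calls of 0.5 were alike at all 4 times (69% to 74%), but the real groups differed in spread. Chi-square per gene between a group's 2 libraries reached 9.51 for 96 h and 6.88 for DMSO. The remaining groups had 2.17 to 2.66. The simulated percentages may therefore be too high for the real 96 h comparison. Ratios per library, DESeq2 1.42.0, other scalings and filters, a GC offset, a replicate block and each library left out were alternatives. Replicate numbers did not pair the libraries.

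All 36 members are named. Of the other lists, up to 3 genes with the smallest adjusted p among those called at 48 or 96 h are named, with BRD9 and the markers that check the line in addition. Members and lists were chosen with earlier results of these data known.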

Additional observations from a re-analysis of the deposited data

Results flagged for a closer look

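EZH1 and BCORL1 were singled out because their levels differed between 96 h and 12 h of WA-68 by a direct test. The hour of the DMSO harvest is not known, so time in culture cannot be told apart from treatment. The log2 fold change of EZH1 against DMSO was 0.37 at 96 h and -0.01 at 12 h, a difference of 0.38 (SE 0.101, adjusted p = 0.0349, edgeR), and both 96 h libraries lay above both 12 h libraries. BCORL1 differed by 0.41 (SE 0.114, adjusted p = 0.0417, edgeR), with both 96 h libraries above both 12 h libraries. Its 96 h libraries, at 149 and 191 CPM, overlapped with DMSO, at 138 and 170 CPM. Each of these 2 calls was lost when any 1 of 6 libraries was left out, and without the second 96 h library the difference of BCORL1 was 0.22 (adjusted p = 0.425, edgeR).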

How the results depend on the processing

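No member that was called changed direction under any alternative. The counts of members called at 12, 24, 48 and 96 h, at 96 h against 12 h and in the joint test were 2, 2, 3, 8, 2 and 5. With a GC offset they were 6, 4, 7, 16, 7 and 14, and with the GC offset and a replicate block together 6, 4, 8, 16, 7 and 14. The replicate block alone moved the count at 96 h against 12 h to 1, where BCORL1 was lost (adjusted p = 0.0505, edgeR), and changed no other count; the replicate numbers are only names, with correlations of -0.302 to 0.397 between the groups' replicate differences. DESeq2 gave 1 at 12 h, 1 at 24 h, 5 at 96 h and 1 at 96 h against 12 h. Only the libraries compared gave 1 at 24 h, 1 at 48 h, 3 at 96 h and 1 at 48 h against 24 h. Unscaled library sizes gave 1 at 24 h and 1 at 96 h against 12 h, and they moved the share of higher genes among all called genes at 96 h to 60.2%, against 47.3% with TMM. A stricter filter gave 1 at 24 h, and no filter gave 9 in the joint test. Without both second libraries of DMSO and 96 h, chosen after seeing the data, there were 8 at 48 h, 1 at 48 h against 24 h and 11 in the joint test. Leaving out each library in turn gave 0 to 6 at 12 h, 0 to 4 at 24 h, 1 to 7 at 48 h, 5 to 13 at 96 h, 0 to 5 at 96 h against 12 h and 3 to 10 in the joint test. The causes were not tested. With 2 libraries a group and a common DMSO pair, changes under about 0.5 on the log2 scale are often missed, and no exact permutation of 2 against 2 can pass 0.05.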
